A study of Zea mays with 10 samples.

Results

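The HD-ZIP IV family is a plant family of transcription factors that join a homeodomain, which binds DNA, to a leucine zipper, through which the proteins pair, and to a START domain. In maize the members named OCL, for outer cell layer, are known for transcripts in the epidermal layer of embryos, meristems and young organs. They are linked to the identity of that layer, to its cuticle and, in the case of ocl4, to the anther wall and to the repression of leaf hairs. The genes described here are 5 of these, among 39636 gene models measured: ocl1 (GRMZM2G026643), ocl3 (GRMZM2G116658), ocl4 (GRMZM2G123140), HDZIV6_OCL6 (GRMZM2G001289) and HDZIV14_OCL14 (GRMZM2G145690). They were taken by gene ID and were chosen by their levels in mutant against normal ears, with those results in view. Their fold changes between the genotypes are therefore a description, with no test. A search of the reference name table for names that begin with ocl or HDZIV gave 2 more genes with a gene ID in the data. These, ocl5 (GRMZM2G130442) and HDZIV8_OCL8 (GRMZM2G122897), served as comparison. The class below means these 7 genes only. HD-ZIP IV genes under other names, or with an ID not matched in that table, would have been missed.

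RNA-seq was carried out on maize ear primordia of 1 mm, the young inflorescences that later bear the kernels. There were 3 pools from homozygous fea4/fea4 mutants and 3 pools from heterozygous fea4/+ plants of the same segregating families, which look normal and are called siblings, and each pool held more than 10 ears. The gene FEA4 (FASCIATED EAR4) encodes a bZIP factor, and its loss gives ears that are broad and flattened. All 6 pools therefore carry at least 1 copy of a fea4 allele. The plants were grown in the field. The mutation came from chemical mutagenesis of the inbred A619 and was crossed into several inbred lines, and which of the alleles and lines the pools came from is not stated in the labels. The labels name no lane or batch per library. FEA4 binding in tassel primordia was also mapped in the series, but those peaks lie on a build on which no source used here places genes, so none was tied to an OCL gene.

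The libraries held 8168955 to 28323324 fragments, with mutant replicate 2 the shallowest. Levels are given as CPM, fragments scaled to the size of each library, and, to compare genes with each other, as the deposited FPKM, which also divides by gene length. The meristem gene kn1, a homeobox gene that marks the meristems an ear primordium is built of, had 873 ± 72.4 CPM in siblings against 871 ± 158 CPM in mutants (SD, n = 3 pools). The other 7 meristem genes listed below summed to 358, 391 and 376 CPM in siblings and 292, 313 and 280 CPM in mutants. The level of kn1 alone therefore does not show equal meristem content. The leaf genes rca1 and pep1 had 0 fragments in all 6 libraries, as did 5 of 7 kernel genes. Since the pools were made of whole ear primordia, the place of the OCL transcripts within the ear was not measured, and fewer epidermal cells and less RNA per epidermal cell cannot be told apart.

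All 5 OCL genes were present in every library. Among the 7 HD-ZIP IV genes named here ocl4 stood highest, with a sibling level of 38.3 FPKM (lowest 32.6, highest 41.8). This was higher than 83.7% of the tested genes. The next level was that of HDZIV8_OCL8, at 15.0 FPKM, which was 2.56-fold lower than ocl4 and did not overlap it. ocl5, ocl1 and HDZIV6_OCL6 followed at 13.5, 11.9 and 11.7 FPKM. From HDZIV8_OCL8 down to HDZIV6_OCL6 each gene's range overlapped that of the next, so these neighbours in the order did not differ beyond their spread. ocl3 was lower, at 5.04 FPKM (4.62 to 5.37), and HDZIV14_OCL14 was the lowest at 2.21 FPKM (1.66 to 3.21). Those ranges overlapped neither each other nor the genes above. In the mutants the order of the 5 OCL genes was the same, but ocl1, at 10.3 FPKM (9.46 to 10.8), no longer overlapped HDZIV6_OCL6, at 6.96 FPKM (5.50 to 8.07).

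ocl4, the most abundant member and the one known for its part in anther wall patterning, had 172, 140 and 172 CPM in sibling replicates 1 to 3. In mutant replicates 1 to 3 it had 101, 95.9 and 93.2 CPM. The lowest sibling was well above the highest mutant, and the mutants lay closer together than the siblings. Its mean was 161 ± 18.3 CPM in siblings against 96.8 ± 4.1 CPM in mutants (SD, n = 3 pools), or 59.9% of the sibling level, a log2 fold change of −0.74 ± 0.10 (SE). Counting alone gives an error of 1.66% to 1.99% on each sibling value, against a spread between sibling pools of 11.4%.

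HDZIV6_OCL6, a further homeobox gene of the class, had 42.8, 48.0 and 43.6 CPM in the siblings. The mutants had 20.9, 29.3 and 27.5 CPM. The groups did not overlap, and mutant replicate 1 was the lowest pool. The mutant mean was 57.8% of the sibling mean, at 25.9 ± 4.45 against 44.8 ± 2.78 CPM (SD, n = 3 pools), a log2 fold change of −0.80 ± 0.15 (SE).

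ocl3 had 23.5, 20.9 and 24.4 CPM in the sibling pools and 11.2, 17.1 and 12.6 CPM in the mutant pools. The groups did not overlap here either, but the shallow mutant replicate 2 lay nearer to the siblings than the other mutants did. The mean was 23.0 ± 1.83 CPM in siblings against 13.6 ± 3.09 CPM in mutants (SD, n = 3 pools), or 59.2%, a log2 fold change of −0.78 ± 0.20 (SE). Without mutant replicate 2 it was −0.95, and without mutant replicate 3 it was −0.65.

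HDZIV14_OCL14 was the rarest, with 10.4, 5.37 and 5.11 CPM in the siblings and 3.96, 4.66 and 3.20 CPM in the mutants. All mutants lay below all siblings, but the gap to the nearest sibling was small and the sibling mean rests on replicate 1. The means were 6.96 ± 2.97 CPM against 3.94 ± 0.734 CPM (SD, n = 3 pools), a log2 fold change of −0.83 ± 0.35 (SE), and −0.43 without sibling replicate 1. Its fragments numbered 38 in mutant replicate 2 (95% exact Poisson interval 26.9 to 52.2) and 169 in sibling replicate 1 (144 to 196). In 5 of 6 libraries its count was not a whole number, as happens where fragments are divided between gene models, so its level is uncertain. The counts of ocl1, ocl3, ocl4 and HDZIV6_OCL6 were whole in all 6 libraries.

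ocl1, which raises lipid and cuticle genes when overproduced, showed the smallest difference of the 5. It had 38.9, 46.8 and 48.1 CPM in the sibling pools and 38.8, 34.5 and 39.6 CPM in the mutant pools. Sibling replicate 1 lay among the mutants, so the groups overlapped. The means were 44.6 ± 5.01 CPM against 37.6 ± 2.73 CPM (SD, n = 3 pools), or 84.4% of the sibling level, a log2 fold change of −0.24 ± 0.13 (SE).

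**Figure D1:**
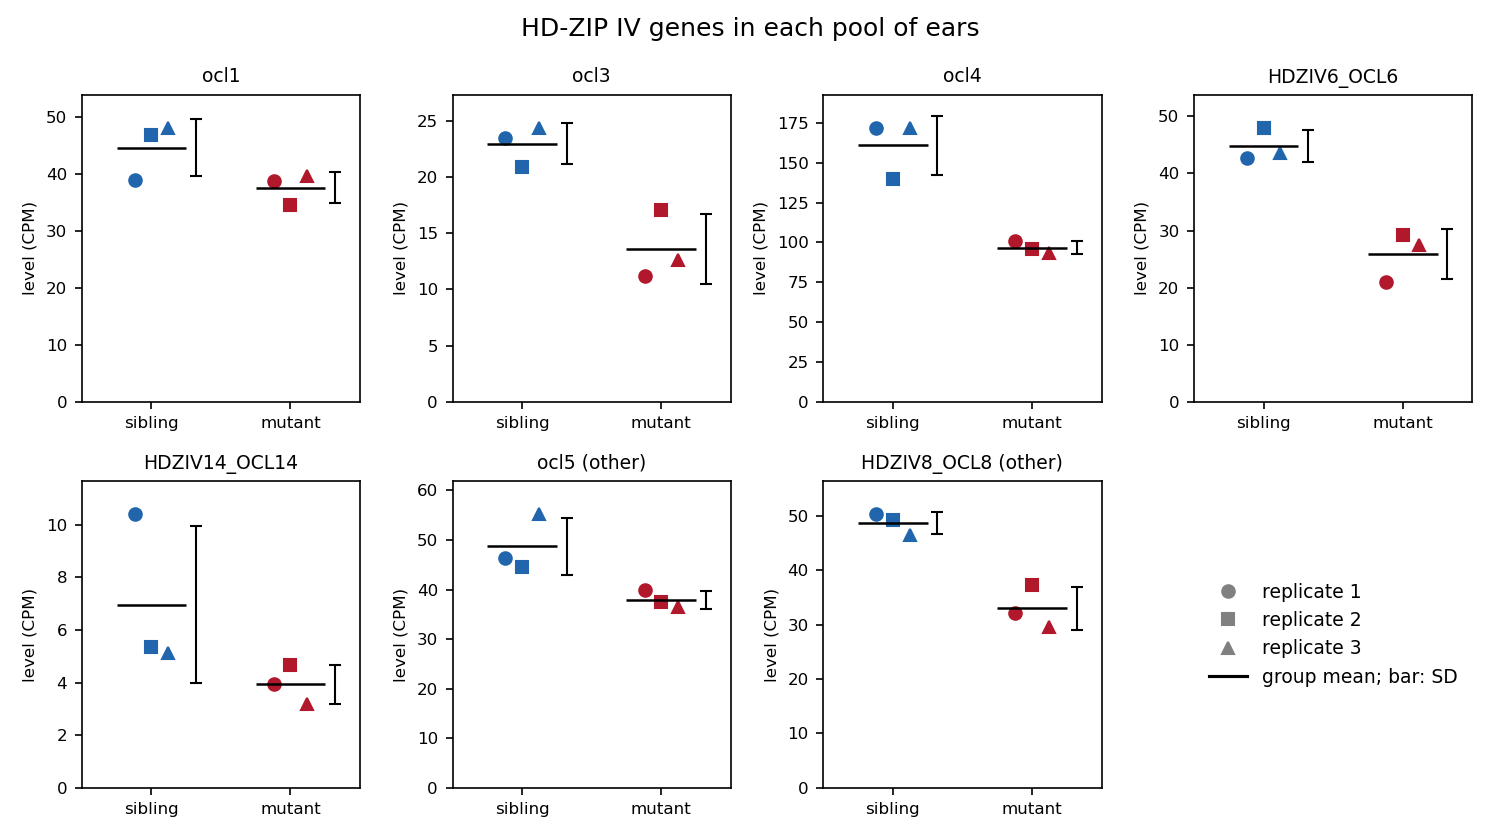
Level in CPM of the 7 HD-ZIP IV genes in each pool, siblings in blue and mutants in red, with the symbol giving the replicate number, the line the group mean and the bar the SD (n = 3 pools); "other" marks the 2 genes used as comparison. In ocl1 sibling replicate 1, at 38.9 CPM, lies among the mutants, while in the other 6 genes all mutants lie below all siblings, and in HDZIV14_OCL14 sibling replicate 1, at 10.4 CPM, stands above the rest.

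The 3 mutant values lay below the 3 sibling values in 4 of the 5 OCL genes, against 10.5% of the 20618 genes tested in the whole table. Nothing is read from this count, because the OCL genes were chosen with this comparison known. For the same reason no test call is given for them. Over the whole table, edgeR's quasi-likelihood test put 1.08% of tested genes lower at an adjusted p under 0.05. It put 1.4% higher and 2.48% in either direction. Log2 fold changes in the authors' deposited table were −0.24 for ocl1, −0.75 for ocl3, −0.74 for ocl4, −0.79 for HDZIV6_OCL6 and −0.82 for HDZIV14_OCL14.

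The makeup of the class, meaning the 7 genes named here, was compared by ratios within each library. Since 5 of the 7 were chosen with the genotype comparison known, the ratios and sums are descriptions. The ratio of ocl4 to ocl1 in FPKM was 3.94, 2.60 and 3.25 in the sibling pools against 2.34, 2.48 and 2.12 in the mutant pools, so every mutant lay below every sibling. The ratio of HDZIV6_OCL6 to ocl1 was 1.08, 0.997 and 0.891 in the sibling pools against 0.521, 0.853 and 0.675 in the mutant pools, again without overlap. The ratio of ocl1 to ocl3 was 2.00, 2.72 and 2.39 in the sibling pools against 4.23, 2.46 and 3.83 in the mutant pools, and here mutant replicate 2 lay among the siblings. The ratio of HDZIV14_OCL14 to ocl1 was 0.313, 0.140 and 0.129 against 0.124, 0.158 and 0.0983, which overlapped as well. The ratio of ocl4 to ocl3 was 7.58 ± 0.452 in siblings and 8.05 ± 1.90 in mutants, and that of ocl4 to HDZIV6_OCL6 was 3.30 ± 0.598 and 3.51 ± 0.851 (SD, n = 3 pools), differences smaller than the spread. Summed over the 7 class genes, the siblings had 98.3, 91.9 and 103 FPKM and the mutants 65.8, 68.7 and 64.7 FPKM. Of this sum ocl1 made up 12.2% ± 1.63 in siblings and 15.5% ± 1.56 in mutants, and ocl4 39.1% ± 3.16 and 35.7% ± 1.66 (SD, n = 3 pools).

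**Figure D2:**
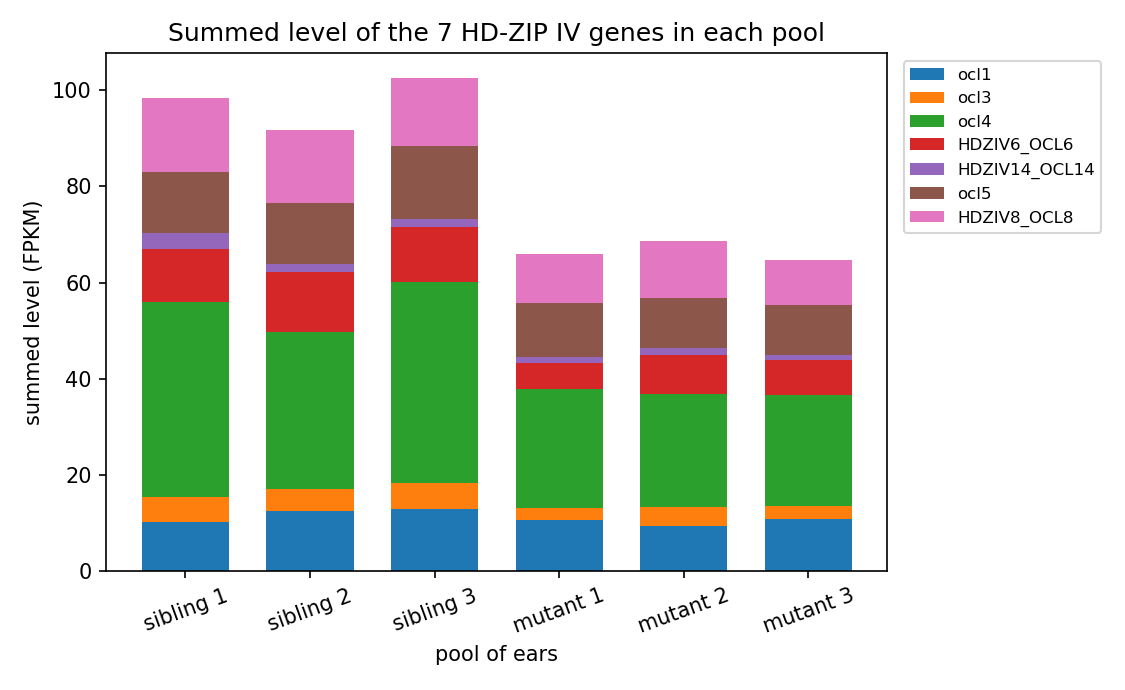
Summed FPKM of the 7 HD-ZIP IV genes in each pool, stacked by gene. The siblings reach 91.9 to 103 FPKM and the mutants 64.7 to 68.7 FPKM, with ocl4 the largest block in all 6 pools. Since 5 of the 7 genes were chosen with this comparison known, the gap is a description.

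The pools of a group did not rank alike for all 5 genes. Sibling replicate 1 was the lowest sibling for ocl1 and the highest for HDZIV14_OCL14, and sibling replicate 2 was the lowest for ocl4 and ocl3 and the highest for HDZIV6_OCL6. Among the mutants, replicate 1 was the lowest for ocl3 and HDZIV6_OCL6 and the highest for ocl4. Replicate 2 was the highest mutant for ocl3, HDZIV6_OCL6 and HDZIV14_OCL14 and the lowest for ocl1.

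Of the 2 other HD-ZIP IV genes, HDZIV8_OCL8 was lower in the mutants and ocl5 did not pass (2 lower and 0 higher at an unadjusted p under 0.05, 1 and 0 by DESeq2). HDZIV8_OCL8 had 50.3, 49.2 and 46.5 CPM in the sibling pools and 32.1, 37.3 and 29.6 CPM in the mutant pools, which did not overlap. On the log2 scale the change was −0.57 ± 0.13 (SE), at an adjusted p of 0.0275 (edgeR, adjusted over all 20618 genes tested after Benjamini and Hochberg). The call was lost on leaving out sibling replicate 1 or 2 (edgeR adjusted p = 0.109 and 0.0866) or mutant replicate 1 or 3 (0.119 and 0.187), and in limma on log2(FPKM + 1) (0.132). ocl5 had 46.4, 44.6 and 55.2 CPM in the sibling pools and 39.9, 37.4 and 36.4 CPM in the mutant pools. These did not overlap either, and on the log2 scale the change was −0.36 ± 0.13 (SE), at an adjusted p of 0.163 in edgeR. Over the 7 genes of the class the log2 fold changes ran from −0.83 to −0.24.

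Other genes listed by name for the outer cell layer lay on both sides of 0. Whether they mark that layer in the ear was not tested. Of 11 listed epidermis and cuticle genes 8 were tested, of which 1 was lower, 1 higher and 6 not past the threshold (1 and 1 at an unadjusted p under 0.05, 1 and 1 by DESeq2). Both gene IDs named CER1 are among the 8. The median log2 fold change was −0.07, against −0.01 over all genes tested. The lower gene was cr4 (GRMZM2G051637), which encodes the CRINKLY4 receptor kinase of epidermal cells. It had 96.2, 94.6 and 95.8 CPM in the sibling pools and 73.0, 69.4 and 75.8 CPM in the mutant pools, and the groups did not overlap. On the log2 scale the change was −0.39 ± 0.10 (SE), at an adjusted p of 0.0399 in edgeR, and on leaving out any of the 6 libraries the adjusted p was 0.0577 to 0.148. In limma on log2(FPKM + 1) the adjusted p of cr4 was 0.174.

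The higher gene was LTP3 (GRMZM2G126397), a gene of the lipid transfer proteins, named for moving lipids between membranes. Its levels were 51.0, 54.4 and 61.4 CPM in the siblings and 89.0, 80.4 and 88.9 CPM in the mutants, which is 0.63 ± 0.11 (SE) on the log2 scale (adjusted p = 0.00359 in edgeR). With each library left out in turn the adjusted p of LTP3 was 0.00527 to 0.0369 in edgeR. dek1, which encodes a calpain needed for epidermal identity, had 207 ± 16.7 CPM against 201 ± 14.5 CPM (SD, n = 3 pools; adjusted p = 0.869 in edgeR). AD1, for adherent1, a gene that keeps young organs from fusing, had 47.5 ± 4.85 CPM against 39.7 ± 4.61 CPM (SD, n = 3 pools; adjusted p = 0.345 in edgeR). The listed genes gl1 and gl15 were near the detection limit, with at most 0.672 and 0.498 CPM in any library. The summed level of the list was 480 to 495 CPM in siblings and 463 to 490 CPM in mutants. dek1 made up the largest part of this sum, and the higher level of LTP3 in mutants is included in it. The sum therefore does not show that the other genes of the list were steady.

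ocl4 is known for the anther wall and for small RNAs made there in phase, so genes of those processes were listed as well. Of 10 such genes 6 were tested, and by edgeR 0 were lower and 0 higher (0 and 0 at an unadjusted p under 0.05, 0 and 0 by DESeq2), with a median of 0.14. Of the 6 tested, 3 are gene IDs that all carry the name dcl4, from −0.45 to 0.16 on the log2 scale, and the median of the other 3 was 0.21. The most abundant was lbl1, whose protein takes part in making trans-acting small RNAs, with 1450 ± 118 CPM in siblings against 1680 ± 305 CPM in mutants (SD, n = 3 pools; adjusted p = 0.41 in edgeR). Its counts were not whole in any of the 6 libraries, so its level is uncertain in the same way as that of HDZIV14_OCL14. lbl1 passed without mutant replicate 2 (log2 fold change 0.36, edgeR adjusted p = 0.0356). rdr6, which makes the second strand in that process, had 26.3 ± 6.51 CPM against 31.2 ± 2.88 CPM (SD, n = 3 pools; adjusted p = 0.514 in edgeR). The anther genes ms23 and ms8 had 0 fragments in all 6 libraries.

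Genes listed as markers of other tissue layers gave the setting for these values. Of 8 meristem genes all were tested, 0 were lower and 0 higher by edgeR (5 lower and 0 higher at an unadjusted p under 0.05, 1 and 0 by DESeq2), and their median was −0.33. Unadjusted counts, here and for the other groups of genes, have no share of all tested genes beside them, so nothing is read from them. The level of this list summed to 1160 to 1340 CPM in siblings and 1030 to 1360 CPM in mutants, most of it from kn1. Without kn1 the other 7 meristem genes summed to 358, 391 and 376 CPM in the siblings and 292, 313 and 280 CPM in the mutants, which did not overlap. The list for vasculature and ground tissue held 4 genes, rld1, rld2, Nkd1 and Nkd2. Whether they mark those tissues in the ear was not tested. By edgeR 0 were lower and 0 higher (0 and 1 unadjusted, 0 and 1 by DESeq2), with a median of 0.36. They summed to 394 to 408 CPM in siblings and 432 to 466 CPM in mutants. Most of this came from rld1 and rld2, whose counts were not whole in 5 of the 6 libraries. The part of these marker levels in the values of the OCL genes was not tested. Among the kernel genes 2 were tested, and glb1, a seed storage globulin gene, was lower, at −1.61 ± 0.40 (SE) on the log2 scale (adjusted p = 0.037 in edgeR, 0.0599 to 0.184 on leaving out 1 library, and 0.129 in limma on log2(FPKM + 1)). Counts of glb1 were not whole in 2 of the 6 libraries. The summed level of the kernel list was 4.65 to 9.23 CPM in siblings and 1.84 to 3.62 CPM in mutants.

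**Figure D3:**
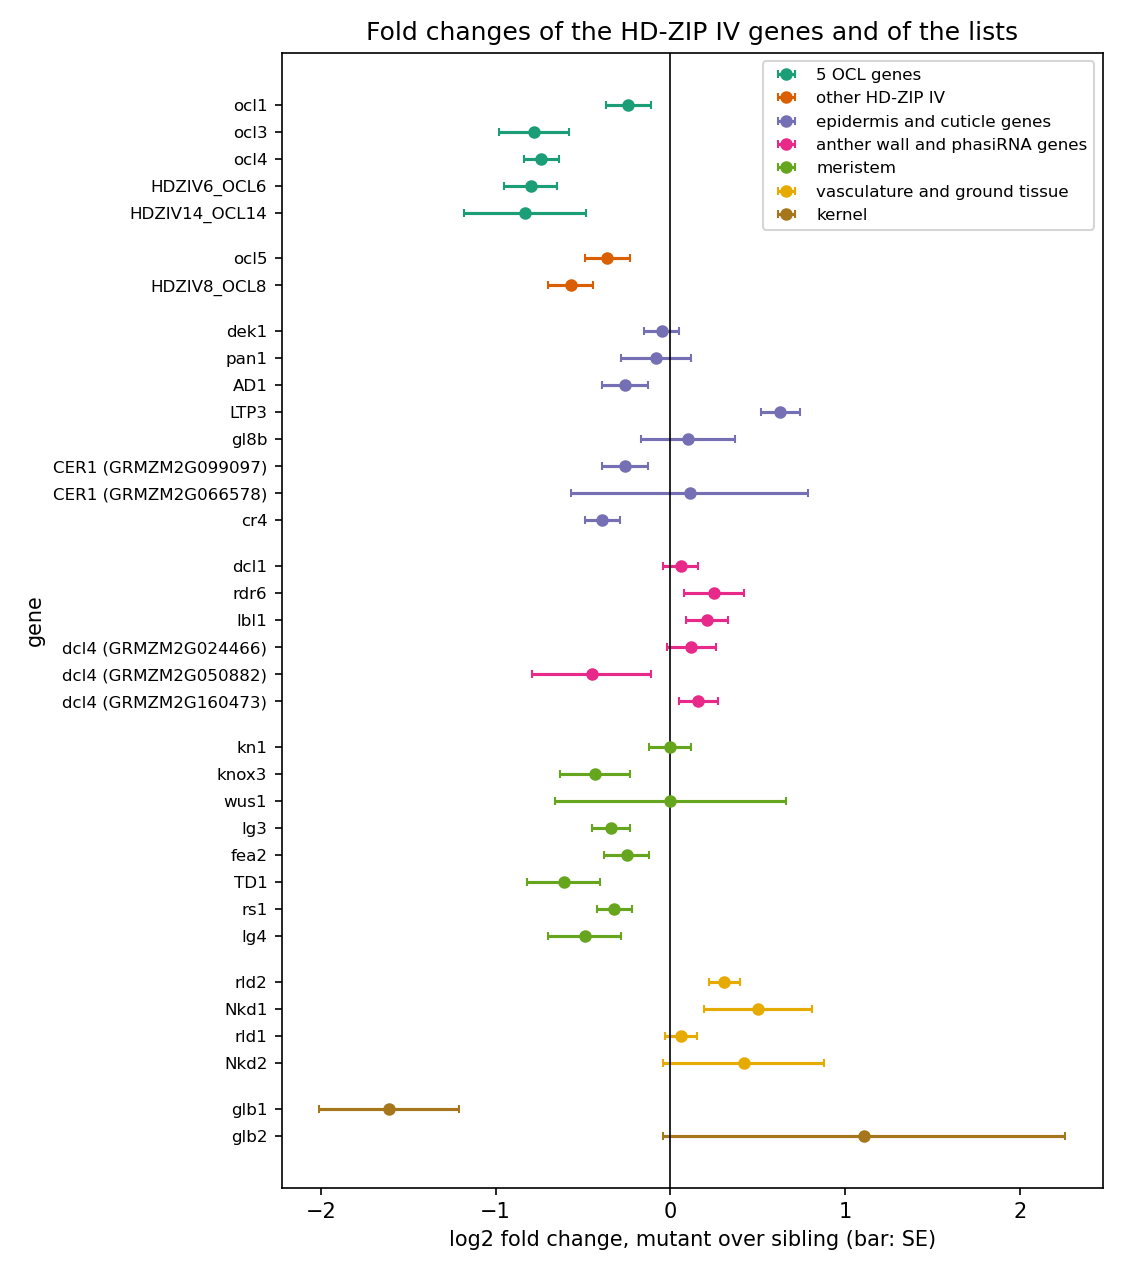
Log2 fold change, mutant over sibling, with its SE, of the 7 HD-ZIP IV genes and of the tested genes of each list. The HD-ZIP IV genes lie from −0.83 to −0.24 and the epidermis and cuticle genes from −0.39 to 0.63. The genes listed for vasculature and ground tissue lie from 0.06 to 0.50.

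The regions around the OCL genes were compared next, through the order of genes in a newer reference assembly. None of the 5 genes lies on the chromosome that carries FEA4. Only tested genes whose ID matched exactly 1 reference entry could be placed, so closer tested genes may be missing. The 2 nearest placed genes on each side of each OCL gene made 20 neighbours. Between an OCL gene and its neighbour lay 0 to 34 other entries of the reference table (median 5.5). Of the 20, 0 passed by edgeR (1 lower and 1 higher at an unadjusted p under 0.05, 0 by DESeq2; lowest adjusted p = 0.214). Their median log2 fold change was −0.09, with 12 of 20 below 0. For HDZIV14_OCL14 3 of the 4 neighbours lay above 0, at 0.32, 0.43 and 0.60. For ocl3 all 4 lay below 0, and the 2 with the lowest values, GRMZM2G116514 and GRMZM2G052509, had log2 fold changes of −0.89 ± 0.46 and −1.15 ± 0.46 (SE; adjusted p of 0.359 and 0.214 in edgeR, not past the threshold) at low levels of 5.04 and 4.13 CPM in siblings.

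**Figure D4:**
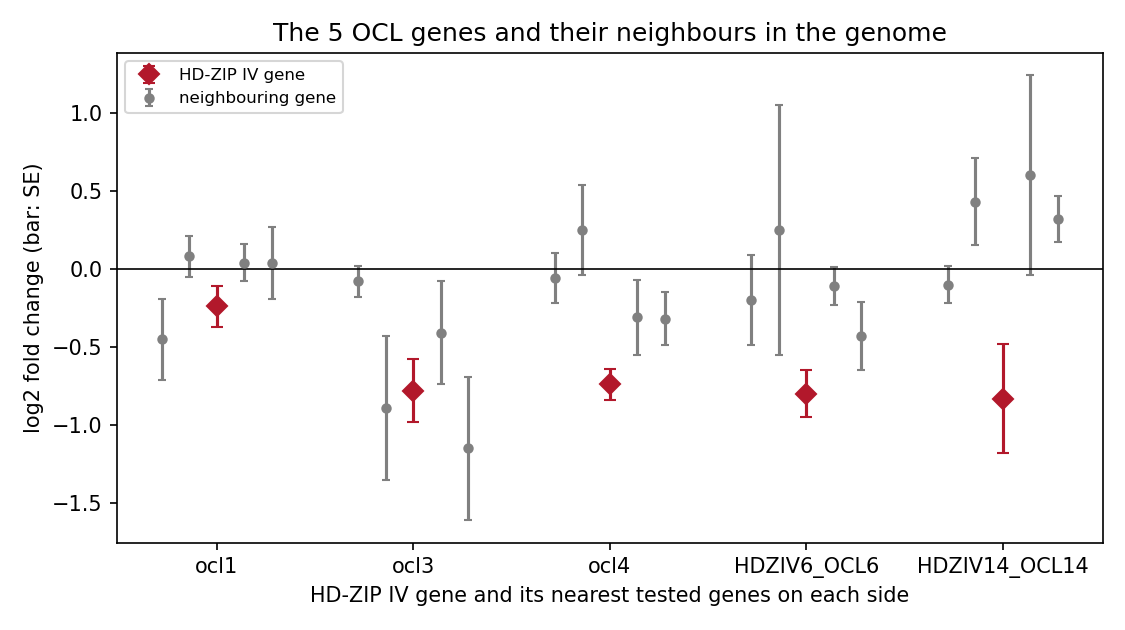
Log2 fold change, mutant over sibling, with its SE, of each of the 5 OCL genes (red diamonds) and of its neighbours (grey). The neighbours are the 2 nearest tested genes on each side whose ID matched a reference entry. The neighbours of ocl4 lie from −0.32 to 0.25 and those of HDZIV14_OCL14 from −0.10 to 0.60, while those of ocl3 reach −1.15.

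Named genes whose pattern over the 6 libraries was most like that of each OCL gene were found by Pearson's r of log2 CPM. These are descriptions, since all genes share the libraries and the genotype difference. Like ocl4 were CYP78A53, a cytochrome P450 gene, ankyrin-1 and HB21, with r of 0.993, 0.987 and 0.985. Like HDZIV6_OCL6 were grp1, PP2C12 and rbohD, with r of 0.995, 0.994 and 0.977. Like ocl3 were pck2, a phosphoenolpyruvate carboxykinase gene, the auxin response factor gene ARF18 and the histone gene H4C13, with r of 0.997, 0.996 and 0.986. For HDZIV14_OCL14 they were cyclin4, lg4 and hon110, with r of 0.985, 0.969 and 0.969, and for ocl1 PP2C24, ACR4 and chr124, with r of 0.973, 0.960 and 0.956. Log2 fold changes of these 15 genes ran from −1.08 to −0.07, a direction that the choice by likeness favours, so no test is given. An r above 0.95 was reached by 38 of the other tested genes for ocl1 (0.184%), 40 for HDZIV14_OCL14 (0.194%) and 121 for HDZIV6_OCL6 (0.587%). For ocl4 it was reached by 152 (0.737%) and for ocl3 by 162 (0.786%). The 3 named for each gene were the highest of 1812 named genes compared, and so were among many.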

How the data were processed

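The expected counts were deposited by the authors as raw fragments per gene, and 11.4% to 14.1% of values per library were not whole. FPKM values, per gene length and library, were also deposited by the authors, as was a log2 fold change from DESeq and an adjusted p-value, per the file headers. Tools listed without roles in the submitters' processing notes are TopHat2 2.0.9, DESeq 1.14.0, Cufflinks 2.0.2 and CASAVA. No source used here gives the table's genome build or says whether counting used strand. Overlapping antisense genes thus could not be separated. Counts were rounded and tested over the whole table with edgeR 4.0.16 under R 4.3.3 (two-sided quasi-likelihood test, robust, TMM, filterByExpr, no covariate), Benjamini-Hochberg adjustment and a threshold of 0.05. The fit was tested on simulated data. log2 CPM for likeness used a prior count of 2. Alternatives were RLE factors, no filter, DESeq2 1.42.0, limma 3.58.1 on log2(FPKM + 1) and log2(FPKM + 0.1), a replicate block and leaving out each library. Counting intervals cover counting error only. Counts of replicate libraries were further apart than sampling noise allows (9.4 to 17.2 for chi-square over its degrees of freedom), so none was treated as a library deposited more than once. This does not show that they are independent samples. The labels name triplicate pools, without saying whether they came from separate plantings, so p-values measure the spread between these pools.

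Names came from a reference table for another assembly (Zm-B73-REFERENCE-NAM-5.0), used only for names and gene order. Of 39636 IDs, 18255 matched exactly 1 entry. Genes and lists were chosen with earlier results of these data known. Named are the 5 OCL genes, the other class genes tested, list genes past the threshold, and the 3 named genes outside the class most like each OCL gene. Other list genes and neighbours named were chosen after their values were seen, to show levels. FAR1.10, a haemoglobin gene GLB1 and Pep1 matched symbols searched for the lists but are genes of another kind, and were left out.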

Additional observations from a re-analysis of the deposited data

How the results depend on the processing

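The log2 fold changes of the 5 OCL genes stayed below 0 and moved by less than the pooled SD of log2 CPM between replicates (0.13 to 0.44) under each alternative run. HDZIV14_OCL14, with the SD of 0.44, moved most, from −0.83 to −0.43 without sibling replicate 1. With 1 library left out they ranged from −0.33 to −0.18 for ocl1, −0.95 to −0.65 for ocl3, −0.83 to −0.69 for ocl4, −0.88 to −0.66 for HDZIV6_OCL6 and −1.01 to −0.43 for HDZIV14_OCL14. The number of genes changed over the table was 512, with 922 without the filter and 893 by DESeq2. Limma gave 191 on log2(FPKM + 1) and 162 on log2(FPKM + 0.1), and the count was 156 to 811 on leaving out 1 library. Same-numbered libraries did not deviate together (r of 0.006, −0.011 and −0.026), and not every library correlated best with its own number. With the replicate block 719 genes changed, and the log2 fold changes of the 5 OCL genes, in the order above, were −0.24, −0.79, −0.74, −0.80 and −0.77. The counts of lower genes in the other HD-ZIP IV, the epidermis and cuticle and the other tissue layer lists, 1 each, were 0 by limma with either pseudocount, and 0 to 1, 0 to 0 and 0 to 2 on leaving out 1 library. In the other tissue layers 2 were lower without the filter and by DESeq2, and 1 was higher by DESeq2 in place of 0. In the anther list 0 to 1 were higher on leaving out 1 library. kn1 had 0.03 by limma with either pseudocount and −0.15 to 0.11 on leaving out 1 library. With group means taken out, 0 of the 3 genes most like each OCL gene stayed among the 3 highest. Their r was then 0.84 to 0.99, high values that their choice by r over the same libraries favours. Ordered by CPM, ocl1 and HDZIV6_OCL6 exchanged places 4 and 5. Keeping the 3 genes with a shared symbol, an alternative chosen after seeing the data, changed no edgeR count of lower or higher genes, but GLB1 made the higher genes of other tissue layers 2 in place of 1, both unadjusted and by DESeq2. The protein and promoter comparisons planned were not run.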
